A study of Homo sapiens with 5 samples.

Results

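Ribosomal protein genes were examined in RNA-seq libraries of TOV21G cells and of their EZH2 inhibitor-resistant (EIR) clones. Members were the rows whose Ensembl identifier belonged to a protein-coding gene with an RPL or RPS symbol and a number, together with RPLP0, RPLP1, RPLP2 and RPSA. The RPS6K kinases, readthrough genes, pseudogenes and RPS19BP1 were left out. This gave 84 of the 30476 genes in the table, namely 43 of the large subunit, 31 of the small subunit, 3 of the stalk and 7 paralogs with their own symbol (RPL3L, RPL7L1, RPL22L1, RPL26L1, RPL36AL, RPL39L and RPS27L). The annotation held 87 such genes, and RPL10L, RPS4Y1 and RPS4Y2 were not analysed here.

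TOV21G is an established ovarian clear cell carcinoma cell line that carries mutated ARID1A, which encodes part of the SWI/SNF remodeler, and this background was shared by all libraries. GSK126 is a small-molecule inhibitor of EZH2, the methyltransferase of the polycomb repressive complex 2. The EIR cells were selected by raising GSK126 stepwise from 5 to 20 uM, and each EIR line was 1 picked clone. The 5 libraries were 1 of parental cells without GSK126 and 4 of EIR cells, with clone 3 and clone 4 each sequenced once untreated and once treated with GSK126. The dose and time of that last treatment were not given in the labels.

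Each eukaryotic ribosome holds a large and a small subunit, and nearly every ribosomal protein is present in a single copy in its subunit, so the genes are expressed together and at high level in growing cells. Most of their mRNAs begin with a C followed by a run of pyrimidines, the 5' terminal oligopyrimidine (TOP) motif, through which mTOR signalling and LARP1 control their translation. Their abundant short mRNAs have left many retrocopies in the genome, and several have introns that carry small nucleolar RNAs, so that part of the reads fit more than one locus.

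The start regions show the TOP motif in several of the genes that lead the comparisons below, though not in RPL3. Each sequence runs from 10 bases before the annotated start to 20 bases into the transcript, 5' to 3' on the coding strand (RefSeq, GRCh38.p14), and capitals mark the C at the start with the pyrimidine run that follows it.
RPL13A (chr19:49487598-49487627, + strand): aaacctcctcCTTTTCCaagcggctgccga
RPL12 (chr9:127451387-127451416, - strand): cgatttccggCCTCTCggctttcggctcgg
RPLP0 (chr12:120201092-120201121, - strand): ggcgcgaggcCCTTCTCTCgccaggcgtcc
RPS19 (chr19:41860245-41860274, + strand): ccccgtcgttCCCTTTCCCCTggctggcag
RPS24 (chr10:78033853-78033882, + strand): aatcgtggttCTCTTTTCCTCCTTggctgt
RPL24 (chr3:101686699-101686728, - strand): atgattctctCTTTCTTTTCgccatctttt
RPL39 (chrX:119791611-119791640, - strand): ccgccagcttCCCTCCTCTTCCTTTCTCCg
RPL3 (chr22:39319604-39319633, - strand): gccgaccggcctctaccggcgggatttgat
RPS27L (chr15:63157458-63157487, - strand): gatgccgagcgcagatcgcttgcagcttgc
RPL36AL (chr14:49620607-49620636, - strand): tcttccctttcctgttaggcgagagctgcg
RPL3, RPS27L and RPL36AL are shown because no run long enough to be counted began at their listed start. RPL3 and RPL36AL start with C, but fewer than 4 C or T follow it. A run was counted where the base at a listed start, on the strand of the gene, was C and at least 4 C or T followed. By this count 47 of the 67 members matched to the RefSeq table (70.1%) had a TOP start, against 5.14% of the 27305 genes in it. Of the lists compared with the members below, 10 of 12 matched other TOP mRNAs, 3 of 31 ribosome biogenesis genes and 5 of 67 mitochondrial ribosomal protein genes had one.

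Counts in the members formed 3.98% of all counts in the parental library (95% Wilson interval 3.98 to 3.99%). The share was 3.26% in untreated clone 3, 3.34% in untreated clone 4, 3.18% in treated clone 3 and 3.16% in treated clone 4. All 4 EIR libraries lay below the parental one, with a mean of 3.23% ± 0.083 (SD, n = 4) and ratios to parental of 0.79 to 0.84. Intervals cover counting error only, and the 4 EIR libraries came from 2 clones. An exact permutation test of 1 library against 4 cannot give a p below 0.2, so the share is given without a test.

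The large subunit went from 1.99% of counts in parental cells to 1.65% ± 0.053 in EIR cells (SD, n = 4), and the small subunit from 1.70% to 1.37% ± 0.043. The stalk genes, whose products form the flexible arm that contacts the elongation factors, went from 0.253% to 0.172% ± 0.010, a ratio of 0.68. The paralogs went from 0.0417% to 0.0397% ± 0.0029, within the range of the EIR libraries. Among counts of protein-coding genes alone, the members' share was 4.49% in parental and 3.63% ± 0.17 in EIR cells.

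**Figure D1:**
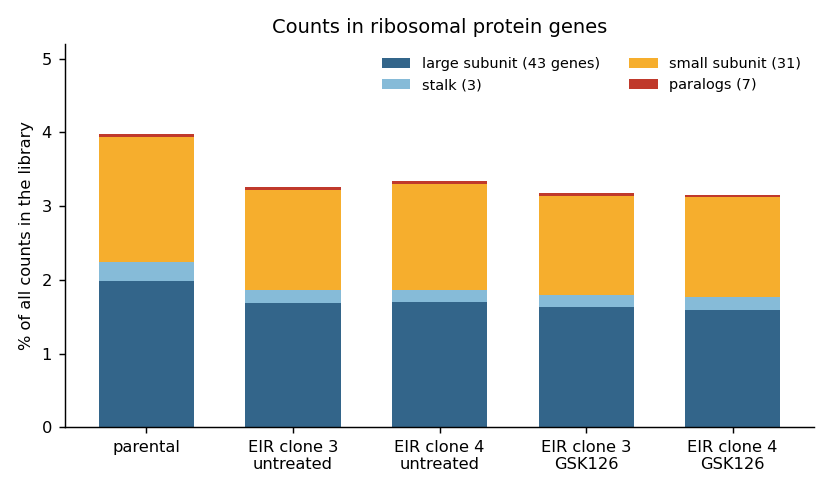
Bars show the percent of all counts of each library that fell in large subunit, stalk, small subunit and paralog genes, stacked from 0, with 1 bar per library. The parental bar reaches 3.98% and the EIR bars 3.16 to 3.34%.

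The members differed widely in level but kept their order. The rank correlation of their counts between libraries was 0.978 to 0.996 over 84 genes and 10 pairs of libraries, a description in which all points share the gene lengths and the counting. The 20 highest members held 52.5% of the members' counts. Per kilobase of median transcript length the level of the 81 expressed members (those averaging 100 or more normalized counts) had quartiles of 129 and 937 CPM per kb (counts scaled to library total and length), with a median of 558.

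RPS24, a small subunit protein, led this scale at 1930 CPM per kb, followed by RPL24 at 1903, RPS25 at 1765, RPS18 at 1737 and RPL31 at 1569. RPS24 fell from 2648 in parental cells to 1638 to 1871 in EIR cells, while RPL24, at 1880 in parental cells, lay inside its EIR range of 1819 to 2052. Per kilobase of coding sequence RPL31 stood higher than RPS24, at 3319 against 2813, so the order of the leading genes depended on which length was used.

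At the other end, 3 members were below the level called expressed. RPL3L, the muscle-type paralog of RPL3, had 1 to 4 counts per library. RPS28 had 41.5 to 87.6 normalized counts and RPS26 had 37.3 to 126, although both proteins belong to every small subunit. Counts of RPS28 lay far below those of its counted pseudogene (below).

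The comparison of EIR with parental cells asks what differed in cells that had become resistant to GSK126. Calls among ribosomal protein genes were in one direction. Of 83 members with an adjusted p, 26 were lower and 0 higher in EIR cells (DESeq2, two-sided Wald test, adjusted p under 0.05). This was 31.3% of the members, against a background of 13.2% of all 16288 genes tested called lower, 12.4% called higher and 25.5% in either direction. The median log2 fold change was -0.36 for the members and 0.0025 for all genes tested. The 26 genes comprised 13 of the large subunit, 11 of the small subunit and 2 of the stalk, and none of the paralogs.

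The number of calls depended on the tool and on GC content. edgeR called 8 members lower and 0 higher (9.64%), against a background of 6.73% lower and 4.39% higher, and gave 36 members an unadjusted p under 0.05, against 38 in DESeq2. With the GC trend of each library removed, DESeq2 called 9 lower and 0 higher (10.8%), against 9.24% of all genes called lower and 10.2% higher, with a median of -0.21 for members and 0.084 for all genes tested. With 1 parental library the spread came from the EIR libraries alone, and any difference of that single library from other parental cultures cannot be told apart from the EIR state. Without treated clone 3 the count was 10 (9.39% of all genes called lower), and without untreated clone 3 it was 13 (9.73%). With the libraries of each clone summed it was 4, or 4.82% of the members against 5.97% of all genes, namely RPL3, RPL12, RPL13A and RPLP0. These 4 genes were called in every alternative run.

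RPL3, a core protein next to the peptidyl transferase center, had 21748 normalized counts in parental cells. It had 11148 and 11245 in untreated clones 3 and 4 and 11819 and 9695 in the treated ones. No EIR library came near the parental level, and RPL3 had the largest fall among the called members (log2 fold change -0.99 ± 0.18 SE, adjusted p = 1.6e-06 in DESeq2, 0.022 in edgeR). The gene lies at chr22:39708887-39716394 on the minus strand (GRCh37, which corresponds to hg19).

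RPL13A, which is also known as the subunit of the complex that silences inflammatory mRNAs, had 6447 normalized counts in parental cells. The EIR libraries were close together at 3368, 3776, 3556 and 3415 (untreated clones 3 and 4, then treated clones 3 and 4). The log2 fold change was -0.87 ± 0.15 (SE), with adjusted p = 6.0e-07 in DESeq2 and 0.020 in edgeR. RPL13A lies at chr19:49990767-49996314 on the plus strand.

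RPL12 (chr9:130209953-130213685) makes the base on which the stalk sits. It had 37529 normalized counts in parental cells and 21504, 22946, 20601 and 19146 in the EIR libraries, in the same order. RPLP0 (chr12:120634502-120639038), the stalk protein that anchors RPLP1 and RPLP2, had 40844 in parental cells and 25047, 24487, 25786 and 22979 in EIR cells. Both were lower in 4 of 4 EIR libraries, by -0.83 ± 0.17 for RPL12 (adjusted p = 2.5e-05, edgeR 0.031) and -0.73 ± 0.15 for RPLP0 (adjusted p = 1.1e-05, edgeR 0.032).

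The other stalk genes were lower too. RPLP2 had a parental level of 24078 normalized counts, against 15530 to 18704 for EIR (-0.51 ± 0.18, adjusted p = 0.019, edgeR 0.092). RPLP1 had 10973 against 6311 to 8415, and its log2 fold change of -0.54 ± 0.22 missed the threshold (adjusted p = 0.058, and 0.027 without treated clone 4). In both genes every EIR library lay below the parental one.

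Among small subunit genes, RPS19, whose loss causes Diamond-Blackfan anemia, had 22018 normalized counts in parental cells. It had 13319 and 14793 in untreated clones 3 and 4 and 13135 and 13778 in the treated ones, all below parental (-0.68 ± 0.15, adjusted p = 0.00011, edgeR 0.039). With the GC trend removed the adjusted p of RPS19 was 0.16. RPS2 and RPS3, neighbours at the mRNA entry site, had log2 fold changes of -0.59 ± 0.16 and -0.56 ± 0.19 (adjusted p = 0.0023 and 0.015), and edgeR called RPS2 (0.044) but not RPS3 (0.076).

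RPS24 kept its call with the GC trend removed. It had 45229 normalized counts in parental cells, 28487 and 31910 in untreated clones 3 and 4, and 28502 and 25103 in the treated ones (-0.67 ± 0.19, adjusted p = 0.0045, and 0.00012 with the trend removed). In edgeR its adjusted p was 0.062.

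Several well-studied members did not pass the threshold. RPS6, the substrate of the S6 kinases, had 30694 normalized counts in parental cells, and its EIR libraries had 23582 to 29992 (-0.25 ± 0.20, adjusted p = 0.40). RPL5 and RPL11, which join the 5S rRNA in the particle that binds MDM2, had log2 fold changes of -0.19 ± 0.19 and -0.01 ± 0.19 (adjusted p = 0.51 and 0.97). For RPL11 the parental value of 13526 lay inside the EIR range of 12187 to 14962.

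RPL4 and RPL10 of the large subunit were called lower, at -0.53 ± 0.18 and -0.49 ± 0.15 (adjusted p = 0.020 and 0.0079), and edgeR gave 0.091 and 0.063. Both calls were lost without untreated clone 3 or without treated clone 3, as were those of RPL39, RPS3 and RPS27, and that of RPL10 also without untreated clone 4. RPLP2 lost its call without treated clone 3 or without untreated clone 4, and RPL39 also without treated clone 4. RPL23, another ribosomal protein that binds MDM2, and RPL41, the smallest ribosomal protein, were at -0.23 ± 0.25 and -0.24 ± 0.21 (adjusted p = 0.54 and 0.45). With the counts of its pseudogene added, RPL41 was called lower, at -0.42 (adjusted p = 0.038). RPS14 and RPSA, the laminin receptor precursor, were at -0.26 ± 0.18 and -0.35 ± 0.24 (adjusted p = 0.33 and 0.29).

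Only 5 members had a log2 fold change above 0, which were RPS26, RPL7, RPL17, RPL6 and RPL7L1, and none of these was called. Of the 81 expressed members, 60 were lower than parental in 4 of 4 EIR libraries (74.1%) and 2, RPL7 and RPL17, were higher in all 4. Among all 11564 expressed genes 40.6% were lower and 31.9% higher in all 4. These shares rest on the same single parental library.

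In the separate libraries the members' median log2 ratio to parental was -0.36 in untreated clone 3, -0.22 in untreated clone 4, -0.38 in treated clone 3 and -0.48 in treated clone 4. The members stayed close to each other, with an SD of 0.24 to 0.27 across the 81 genes in each library. Over the 5683 genes that averaged 1000 or more normalized counts the SD was 0.75 to 0.82. The large and small subunits moved alike, with medians of -0.36 each in the DESeq2 comparison.

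**Figure D2:**
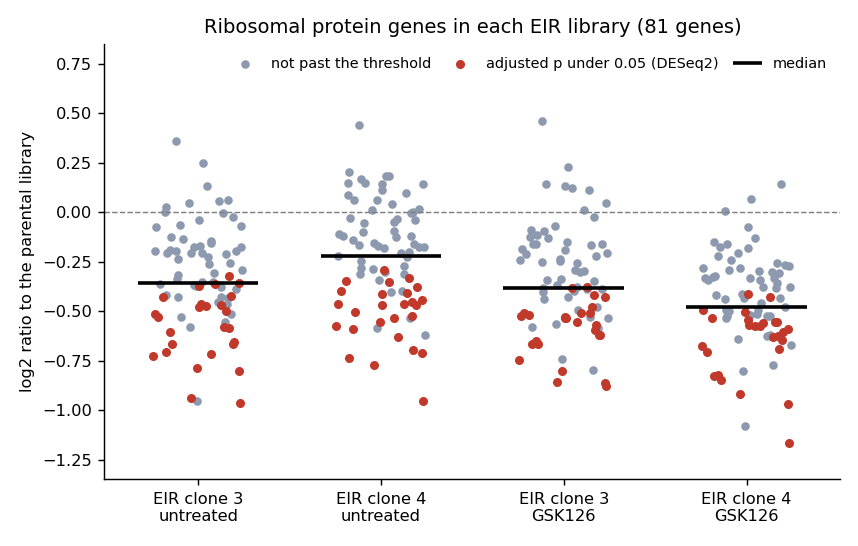
Each point is 1 of 81 expressed ribosomal protein genes in 1 EIR library, the y axis is the log2 ratio of normalized counts to the parental library (pseudocount 0.5), and the bar is the median. Red points are the 26 genes with adjusted p under 0.05, and the medians lie between -0.22 and -0.48.

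The change of a member went with its GC content, the percent of G and C in its annotated transcripts. Across the 81 expressed members the rank correlation of GC content with the log2 ratio to parental was -0.39 to -0.66 in the 4 EIR libraries, and across all expressed genes with a GC value (11377) it was -0.39 to -0.49. These are descriptions whose points share the parental library. The median GC content was 49.3% for the members and 48.3% for all expressed genes.

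Members in each range of GC content lay below all expressed genes in that range. Under 45% GC the median log2 fold change was -0.20 over 17 members and 0.29 over 4109 genes, and from 45 to 50% it was -0.23 over 27 members and -0.051 over 2249 genes. From 50 to 55% it was -0.48 against -0.19, and from 55% upwards -0.51 against -0.38. Of the 26 calls, 22 fell in the 2 ranges from 50% upwards, and with the trend removed 4 of the 9 calls in the members lay under 45%.

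The genes called with the trend removed were RPL3, RPL12, RPL13A, RPLP0, RPS24, RPL4 and RPL39, which were also called without its removal, and RPL9 and RPL31, which were not. RPL31 had 44664 normalized counts in parental and 31164 to 36201 in EIR libraries, and its log2 fold change went from -0.40 (adjusted p = 0.052) to -0.58 (0.00038). RPL39, a short protein of the exit tunnel chosen here after its values were seen, went from -0.46 (0.049) to -0.58 (0.0021). The part of RNA quality or library preparation in the GC trend was not tested.

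**Figure D3:**
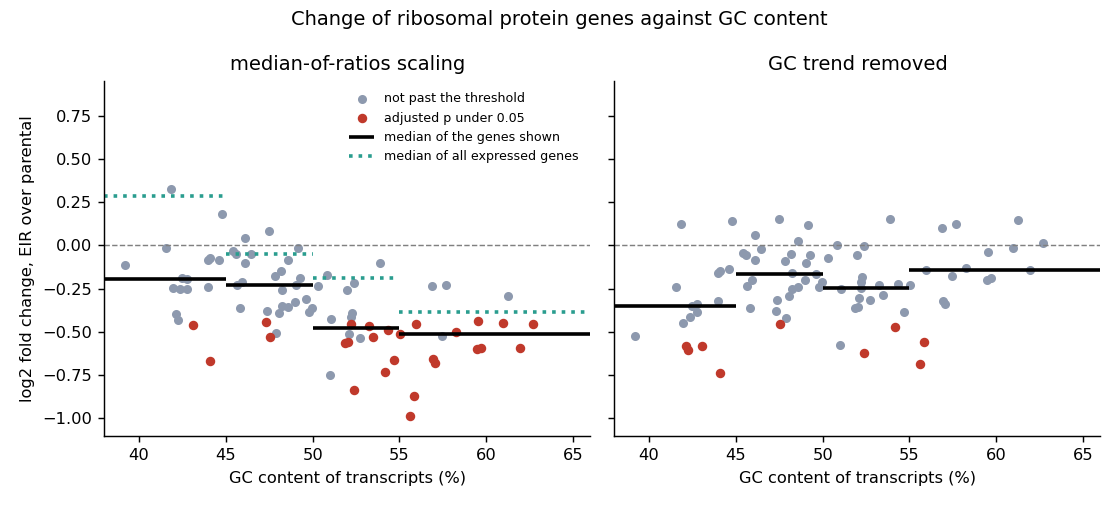
Points are the 81 expressed ribosomal protein genes, with the GC content of their transcripts (percent) on the x axis and the log2 fold change of EIR over parental on the y axis, under median-of-ratios scaling (left) and with the GC trend removed (right). Black bars are the medians of the genes shown in 4 GC ranges, which run from -0.20 to -0.51 on the left and from -0.14 to -0.35 on the right, and dotted bars are the medians of all expressed genes.

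Members are spread over 21 chromosomes, with 11 of the expressed ones on chromosome 19. Of these, 9 were called lower in EIR cells, among them RPL13A and RPS19. Their median GC content was 57.1%, and 21.5% of the 744 other expressed genes tested on chromosome 19 were called lower. With the GC trend removed 1 of the 11, RPL13A, was called.

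Members with a TOP start and those without had similar medians. The class rests on the exact listed start. A member such as RPL4, with a pyrimidine run a few bases further on, was counted as without. The median log2 fold change was -0.35 over 47 members with a TOP start, of which 17 were called lower, and -0.37 over 18 without, of which 5 were called. Small nucleolar RNA genes lay inside 29 members, which held 60 of them. The median of these hosts was -0.36 with 12 of 29 called, against -0.34 with 14 of 52 in the other expressed members. No test was made of either difference.

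Genes that work with the ribosome did not all move in one direction. Of all genes tested, DESeq2 called 13.2% lower and 12.4% higher, and edgeR 6.73% and 4.39%. With the GC trend removed DESeq2 called 9.24% lower and 10.2% higher. These shares are the background for each list below. Of 20 other mRNAs known for the TOP motif, 6 were lower (EIF3L, EEF2, EIF4B, EEF1G, EEF1A1 and TPT1) and 1 higher (NPM1). edgeR called 3 lower (EIF3L, EEF2 and EIF4B) and 0 higher. EEF2, the translocation factor, had 72223 normalized counts in the parental library, against 40480 to 42257 in the EIR libraries (-0.79 ± 0.12, adjusted p = 4.7e-09). EIF3L, a subunit of initiation factor 3, had the largest fall of the list (-0.94 ± 0.16, adjusted p = 1.3e-07), and the nucleolar chaperone NPM1 was at 0.74 ± 0.21 (adjusted p = 0.0035, edgeR 0.076).

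Ribosome biogenesis genes lay on the other side of 0. Of 37 genes that make, modify or assemble ribosomal RNA, 17 were higher and 1 lower in EIR cells, with a median log2 fold change of 0.45. Among all genes tested 12.4% were called higher and 13.2% lower. edgeR called 10 higher and 1 lower, and with the GC trend removed DESeq2 called 20 higher and 2 lower. UTP20, a small subunit processome protein, had 1745 normalized counts in the parental library, against 4704 to 5088 in the EIR libraries (1.503 ± 0.14, adjusted p = 2.4e-23, edgeR 0.0097). The box C/D core proteins parted, with NOP58 at 1.43 ± 0.28 (adjusted p = 6.9e-06) and FBL, the rRNA methyltransferase, at -0.82 ± 0.15 (2.2e-06).

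In the translational control list, EIF4E was higher and EIF4EBP1, EIF4EBP2 and RPS6KB2 were lower, of 10 genes. edgeR called 2 lower (EIF4EBP1 and RPS6KB2) and 0 higher, and with the GC trend removed DESeq2 called 1 lower and 2 higher. EIF4EBP1, the inhibitor of the cap-binding protein EIF4E, had 2074 normalized counts in the parental library, against 1066 to 1278 in the EIR libraries (-0.82 ± 0.19, adjusted p = 0.00016). Of 76 mitochondrial ribosomal protein genes, which serve a separate ribosome, 4 were higher and 3 lower, against 12.4% and 13.2% of all genes. Their median was -0.03. With the GC trend removed the median was 0.16, with 6 higher and 3 lower, and edgeR called 2 in each direction. MRPL1 had the largest rise among them (1.51 ± 0.25, adjusted p = 1.3e-07) and MRPL43 the largest fall (-1.31 ± 0.31, adjusted p = 0.00031).

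Paralog pairs were described by the paralog's percent of the summed counts of both genes, with no test of the percent. The GC trend was not removed from these percents. RPL22L1, a paralog of RPL22 known to be raised where RPL22 is lost, held 24.8% of its pair in parental cells. It held 31.6% and 26.5% in untreated clones 3 and 4 and 34.4% and 28.5% in the treated ones, above parental in 4 of 4 libraries. With the GC trend removed the log2 fold change was -0.53 for RPL22L1 and -0.42 for RPL22, so RPL22L1 then fell more than RPL22. RPL22 had 15886 normalized counts in the parental library, against 9303 to 13575 in the EIR libraries (-0.51 ± 0.25, adjusted p = 0.13), and RPL22L1 had 5234 against 3706 to 5780 (-0.11 ± 0.28, adjusted p = 0.82). Neither gene passed the threshold on its own, although RPL22 did without untreated clone 4 (adjusted p = 0.039).

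RPL36AL, a paralog of RPL36A on another chromosome, held 45.2% of its pair in parental cells and 46.1 to 52.2% in EIR cells, higher in 4 of 4 libraries. The log2 ratio of the pair moved by 0.23, and by 0.07 once the pseudogenes of RPL36A were added to it. With the GC trend removed the log2 fold change was -0.24 for RPL36AL and -0.32 for RPL36A. RPS27L, a p53-responsive paralog of RPS27, held 17.6% in parental cells. In clone 4 it held 23.7% untreated and 20.0% treated, and in clone 3 it held 18.4% and 16.6%, so that the parental value lay inside the EIR range. Its own difference of clone 4 from clone 3 was 0.43 on the log2 scale (DESeq2 adjusted p = 0.13, edgeR 0.063). With the GC trend removed the DESeq2 adjusted p was 0.046.

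Paralog percents were lower than parental in 4 of 4 EIR libraries for RPL26L1 (5.19% against 4.36 to 4.97%) and for RPL7L1 (60.5% against 53.7 to 59.1%). With the GC trend removed the log2 fold change was -0.16 for RPL26L1 and -0.13 for RPL26. In that fit it was 0.062 for RPL7L1 and 0.12 for RPL7. RPL7L1, whose product acts in ribosome assembly rather than as a plain copy of RPL7, was the only paralog with more counts than its partner in all 5 libraries. Per base of transcript it held 28.8% in parental cells, since its transcripts are longer. The level of RPL7 itself was low, at 38.4 CPM per kb against a median of 558 over the expressed members. The 39 counted pseudogenes of RPL7 held 4.67 to 10.3% of the summed counts. The part of read assignment in its low level was not tested.

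RPL39L, best known from the testis, followed the clone. It held 3.39% of its pair in parental cells, 4.11% and 4.13% in clone 3 (untreated and treated) and 2.79% and 2.90% in clone 4. Clone 3 lay above and clone 4 below the parental library whether treated or not. The counts behind RPL39L were 194 to 356 per library, and its own difference between the clones did not pass the threshold (-0.50 ± 0.31, adjusted p = 0.46, edgeR 0.10). RPL3L held 0.044% or less of its pair in every library.

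**Figure D4:**
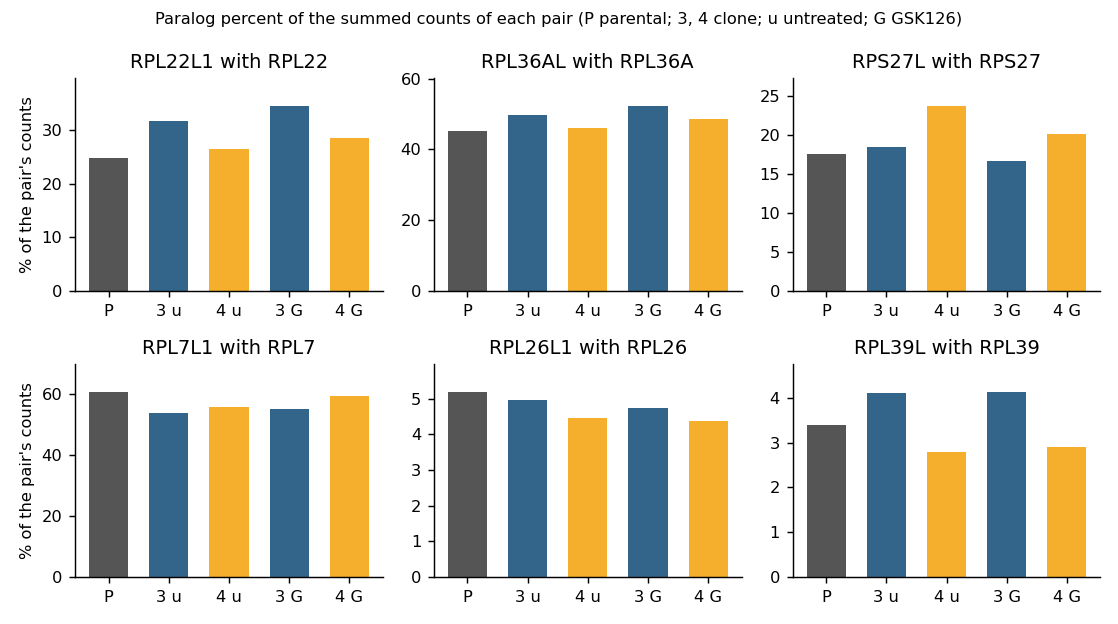
Bars start at 0 and show the percent of each pair's summed counts held by the paralog, with 1 bar per library (P parental, 3 and 4 the EIR clones, u untreated, G treated with GSK126). RPL22L1 lies above parental in 4 of 4 EIR libraries, RPL7L1 and RPL26L1 lie below, and RPL39L is above in clone 3 and below in clone 4. Counting error is not drawn, and the GC trend was not removed from the counts.

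Pseudogenes of the members were counted as genes of their own. The table held 698 pseudogenes of 76 members, which took 0.146% of counts in the parental library and 0.119% ± 0.0034 in EIR cells (SD, n = 4). The 7 highest held 78.3% of these counts in parental cells. The authors' counting divides reads that fit several loci by estimation, so values of a member and its copies are uncertain.

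For 3 members the pseudogenes held more counts than the gene itself in all 5 libraries. RPS28 had 41 to 87 counts, whereas its only counted pseudogene, RPS28P7, had 1187 to 1557. RPL36A had 825 to 1243 counts against 4991 to 6435 in its 22 counted pseudogenes, nearly all in RPL36AP37. RPL41P1 likewise had 2757 to 4298 counts, and made up 69.3 to 73.9% of the sum of RPL41 and this copy.

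RPL22P1 had 9047 counts beside 15773 in RPL22 in parental cells, which also touches the RPL22L1 percent given above. The log2 ratio of RPL22L1 to RPL22 moved by 0.39 from parental to EIR cells, and by 0.37 with the pseudogenes added. Neither value had the GC trend removed, and with it removed RPL22L1 fell more than RPL22 (-0.53 against -0.42). RPL3P4 had 5724 counts in the parental library, against 2732 to 3189 in the EIR libraries, below parental in 4 of 4 libraries like RPL3 itself. RPL9P8 and RPL9P9 had identical counts in every library. Adding the pseudogenes to their genes gave 28 members lower in EIR cells against 26, with 13% of all genes called lower in that fit.

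**Figure D5:**
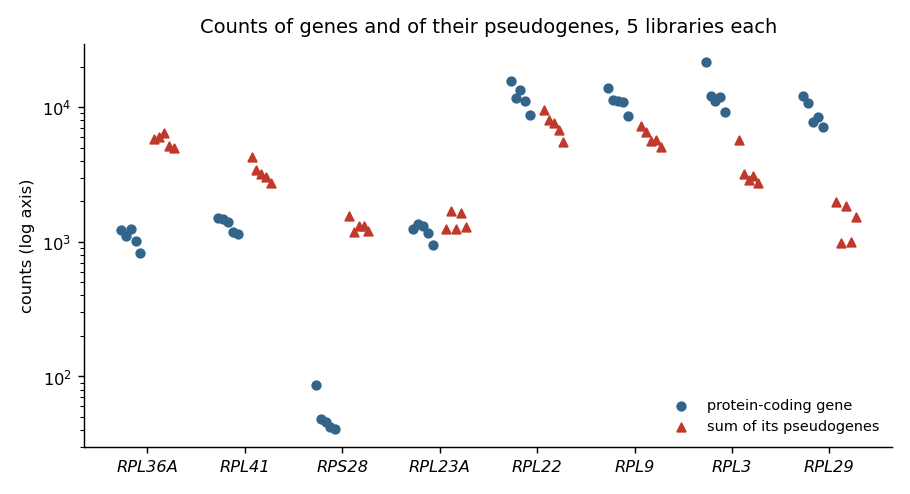
Circles are the counts of 8 ribosomal protein genes and triangles the summed counts of their pseudogenes, on a log axis, with 1 point per library in the order parental, untreated clones 3 and 4, treated clones 3 and 4. Pseudogenes exceed their gene in all 5 libraries for RPL36A, RPL41 and RPS28.

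The comparison of clone 4 with clone 3 asks how far resistant clones resemble each other. Of the 83 members tested, 1 was called lower in clone 4 and 0 higher (1.20%), against a background of 9.81% of all genes called in either direction and, by direction, 6.52% lower and 3.3% higher (DESeq2 with treatment as covariate). The median log2 difference of the members was 0.0085. With the GC trend removed 1 member was lower (RPL30) and 1 higher (RPS27L), against 6.84% and 4.05% of all genes. Without the covariate the count was 2, against 13.9% of all genes called. Leaving out a library as well gave 0 without untreated clone 3 (5.29% of all genes), 0 without treated clone 3 (4.69%), 2 without untreated clone 4 (17.4%) and 5 without treated clone 4 (13%).

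RPL30, a large subunit protein, was the gene called. It had 13612 and 13182 normalized counts in untreated and treated clone 3, and 9922 and 8457 in clone 4. Clone 3 stood at the parental level of 13068 and clone 4 below it, with a difference of -0.55 between the clones (adjusted p = 0.0083, edgeR 0.056). RPL30 lies on chromosome 8, at bases 99037079 to 99058697 (GRCh37). Of 41 other expressed genes within 5 Mb of it, 32 were lower in clone 4 and 10 were called lower, with a median of -0.34, and over 397 other expressed genes of chromosome 8 the median was -0.15.

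RPS26, named here after its values were seen, was the only member edgeR called between the clones (adjusted p = 0.035, against a background of 14.9%, with 9.27% lower and 5.65% higher). It had 126 and 116 normalized counts in untreated and treated clone 3 and 55.9 and 56.1 in clone 4, while the parental library had 37.3. Its counts are low for a ribosomal protein gene, and its 8 counted pseudogenes held 3.55 to 31.5% of the summed counts.

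The comparison of GSK126-treated with untreated EIR cells asks whether the drug still acted on these genes in resistant cells. No member passed the threshold in DESeq2 (0 of 84, against a background of 0.00335%, or 1 of 29847 genes) or in edgeR (0), and 0 members had an unadjusted p under 0.05 in either. With the clone as a replicate block DESeq2 and edgeR again called 0 members (backgrounds of 0.0134% and 0.00602%), and 1 member had an unadjusted p under 0.05 in edgeR. With 2 libraries against 2 an exact permutation test cannot give a two-sided p below 0.33.

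The clones showed different sizes of change with treatment. In clone 3, 42 of 81 members were lower with GSK126 and the median log2 ratio was -0.0085, and in clone 4, 74 of 81 were lower with a median of -0.23. Lower values were found in 41.3% and 55.2% of all expressed genes, in the same order. Over the 5683 genes that averaged 1000 or more normalized counts, 38.7% and 66.7% were lower, with medians of 0.036 and -0.10. RPS6 had 24777 normalized counts untreated and 24909 treated in clone 3, and 29992 and 23582 in clone 4. RPL24 had 32730 and 30193 in clone 3, and 31913 and 27466 in clone 4. Each value is 1 library, so the difference between clones was not tested.

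Total counts ranged from 25479238 to 30764963. PAX8, KRT8 and KRT18, markers of the epithelium of this tumor, were present in all libraries (at least 3083 normalized counts each), and the leukocyte marker PTPRC had 2.0 to 15. EPCAM had 394 to 492 normalized counts in parental and clone 3 cells and 0 and 1.1 in clone 4. PECAM1 was not analysed here.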

How the data were processed

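Total RNA of 5 TOV21G cultures was sequenced after stranded total RNA library preparation. Per the labels and the methods, the authors aligned reads to hg19 with bowtie2 and deposited the expected counts of RSEM per Ensembl gene, rounded to whole numbers and not normalized. RSEM divides reads between similar loci by estimation, and the use of strand in counting is not given in the sources used here. Columns were matched to libraries by name, and the column with no clone tag was taken as parental.

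Symbols, coordinates, GC content and lengths came from GENCODE 44 on GRCh37, which matched 29203 of 30476 identifiers; the 1273 unmatched ones held 3.06% of counts. DESeq2 1.42.0 (R 4.3.3, median-of-ratios size factors, Wald test, Benjamini-Hochberg adjusted p under 0.05) was fitted to all genes and the members' results read from it; edgeR 4.0.16 (quasi-likelihood test) was the alternative. The EIR libraries formed 1 group of 4 against the 1 parental library. EIR libraries with the same clone number in the labels came from 1 clone, which entered as a replicate block or as summed libraries in alternatives only; deviations of same-clone libraries correlated at 0.862 over 11564 genes. P-values measure only the spread between these libraries, which come from 2 clones. Expressed genes had a mean of at least 100 normalized counts. The GC trend was a lowess curve (span 0.3) per library. Alternatives were TMM or total-count scaling, a minimum of 10 counts in every library, pseudogenes added to their genes, clones summed, and each EIR library left out in turn. The fits were also run on simulated counts in which all libraries were independent, unlike the same-clone libraries here. That run cannot show how the p-values behave for these data.

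The genes named were, in each comparison, up to 5 called members with the largest rise and 5 with the largest fall, in the same direction in every library; the paralog pairs, the stalk, 5S particle and other core genes; the 5 highest per base; and the extremes of the other lists. Further names were chosen after their values were seen (RPS26, RPS28, RPL39, RPL9, RPL6, RPL17, EPCAM, EIF4EBP1 and those of the chromosome 19 and pseudogene counts). The members and lists were chosen with earlier results of these data known. Some items are not reported here.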

Additional observations from a re-analysis of the deposited data

Results flagged for a closer look

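The small subunit share of counts had a distant value among the 4 EIR libraries. Untreated clone 4 stood at 1.43% and the others between 1.34 and 1.35%, so the gap took 0.867 of the range, above Dixon's 95% limit for 4 samples. This was 1 of 54 values examined, and chance gives such a gap in about 5% of groups.

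The percent of RPL39L lay on opposite sides of parental in the 2 clones. Its percent of the pair with RPL39 was 3.39 in parental cells, 4.12 on average in clone 3 and 2.84 in clone 4, a ratio of 0.690 between the clones, and both libraries of each clone lay on their own side of parental. RPL30 likewise stood at 13397 normalized counts on average in clone 3, above the 13068 of the parental library, and at 9190 in clone 4, a ratio of 0.686. For RPL30 the clone 3 libraries were near the parental level (0.059 and 0.012 above it on the log2 scale). The sides on which the clones lay from parental were not tested. The difference between the clones was tested for RPL39L, which did not pass (-0.50 on the log2 scale, DESeq2 adjusted p = 0.46, edgeR 0.10), and for RPL30 (-0.555 on the log2 scale, DESeq2 adjusted p = 0.0083, edgeR 0.056).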

How the results depend on the processing

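For EIR against parental, 26 members were lower in DESeq2 (31.3%, against 13.2% of all genes). In edgeR 8 were lower (9.64% against 6.73%), and with the GC trend removed 9 (10.8% against 9.24%). With the libraries of each clone summed 4 were lower (4.82% against 5.97%). With GC and length trends removed 10 were lower, and the share of all genes was not taken for that fit. Leaving out each EIR library in turn gave 10 to 26, with a median log2 fold change of -0.31 to -0.42. The median was -0.21 with the GC trend removed and -0.19 with GC and length trends removed, against -0.36. No alternative run called a member higher. The cause of the loss of calls was not tested, and some of these fits also had fewer libraries. For clone 4 against clone 3, the count of 1 (9.81% of all genes called) became 2 with the GC trend removed (10.9%) and 2 without the treatment covariate (13.9%). The count was also 2 with GC and length trends removed, where the share of all genes was not taken. Leaving out a library, in a fit without the covariate chosen after seeing the data, gave 0 to 5 calls, with 4.69 to 17.4% of all genes called. The medians were -0.13 to 0.11, and the difference of RPL23 turned to -0.12. For GSK126-treated against untreated EIR cells, the count stayed 0 in every alternative run, the replicate block included, where the median was -0.14 with and without it. That median was -0.063 with total-count scaling, -0.086 with GC and length trends removed and -0.081 to -0.22 with each library left out (-0.081 without treated clone 4, -0.089 without untreated clone 4, -0.22 without treated clone 3). The ratio of the share of counts, 0.81, stayed between 0.80 and 0.82 without each library. The RPL36AL log2 ratio went from 0.23 to 0.071 with pseudogenes added. RPL3L, RPS26 and RPS28 had few counts, and the part of depth or read assignment in these was not tested.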
